A study of Caenorhabditis elegans with 2 samples.

Results

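The chaperone genes described here are the protein-coding genes of Caenorhabditis elegans, in the WBcel235 assembly (ce11), whose symbol begins with hsp-, dnj-, cct- or pfd- followed by a digit. The rule found 65 of 19973 protein-coding genes, with 22 hsp genes (heat shock proteins), 29 dnj genes (J proteins), 8 cct genes (chaperonin subunits) and 6 pfd genes (prefoldin subunits). Binding was measured by chromatin immunoprecipitation and sequencing (ChIP-seq) of DSC-1, a paired-like homeodomain transcription factor, with an antibody against GFP. All animals belonged to a single group of 2 biological replicates: hermaphrodites of strain OP522, genotype unc-119(tm4063) III with the transgene wgIs522, which expresses DSC-1 with GFP and FLAG at its C-terminus. Whole L1 larvae were taken 6 h after synchronization at the starved L1 stage that follows bleaching. The fusion comes from a transgene and whole animals were used, so the cells in which a site was occupied are not resolved, and a control experiment named in the labels was not analysed here.

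The deposited data are peak lists, which hold no read counts, so the depth of each library is unknown. Replicate 1 had 26482 listed peaks, replicate 2 and the pooled library 30000 each, and 6283 pooled peaks passed their threshold on the irreproducible discovery rate (IDR), a measure of how well peak ranks repeat between replicates. The pooled list before the threshold is labelled as peaks and background used as input for IDR, so its weaker entries can be background. Each peak carries the authors' own signal value, whose scale is not stated. It ran from 78.4 to 2260 in the IDR list with a median of 162, and it was used here only to rank peaks within a list, with rank 1 the strongest. A gene was counted as having a promoter peak when the summit of an IDR peak lay from 1000 bp upstream to 200 bp downstream of its outermost annotated start.

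Molecular chaperones bind unfolded or partly folded proteins and help them reach or keep their folded form. HSP70 proteins work through cycles of ATP hydrolysis that J proteins start and that nucleotide exchange factors such as HSP110 reset. The cytosolic chaperonin CCT is a double ring that folds actin and tubulin, which the prefoldin complex delivers to it, while HSP60 forms the chaperonin of mitochondria. Small heat shock proteins hold aggregation-prone proteins without ATP, and the heat shock factor HSF-1 induces many of these genes through heat shock elements, which are inverted repeats of a short unit in the promoter.

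The summits of the 6 strongest chaperone promoter peaks lay on chromosomes II, III and IV, outside protein-coding genes or, at dnj-13, in an intron, and their sequences are shown because the heat shock elements described below lie in several of them. Each is the summit base with 50 bp on either side in WBcel235, read 5′ to 3′ on the strand of the gene. Capitals mark an inverted pair of heat shock units, in either order (GAANNTTC or TTCNNGAA). The positions are chrIII:1619082-1619182 (plus strand) for hsp-60, chrII:11545442-11545542 (plus) for dnj-13, chrIV:1094306-1094406 (minus) for cct-8, chrIV:17278515-17278615 (plus) for hsp-1, chrII:8185161-8185261 (plus) for cct-1 and chrIII:8447103-8447203 (minus) for hsp-110.
hsp-60: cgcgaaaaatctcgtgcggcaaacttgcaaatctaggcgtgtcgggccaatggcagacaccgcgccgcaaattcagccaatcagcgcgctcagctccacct
dnj-13: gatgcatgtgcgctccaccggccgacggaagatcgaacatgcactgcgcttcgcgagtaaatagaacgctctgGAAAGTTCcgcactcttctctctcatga
cct-8: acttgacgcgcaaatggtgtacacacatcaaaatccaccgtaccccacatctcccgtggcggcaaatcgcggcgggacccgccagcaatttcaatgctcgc
hsp-1: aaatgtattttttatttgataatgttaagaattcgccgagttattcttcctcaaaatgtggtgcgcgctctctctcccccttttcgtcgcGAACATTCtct
cct-1: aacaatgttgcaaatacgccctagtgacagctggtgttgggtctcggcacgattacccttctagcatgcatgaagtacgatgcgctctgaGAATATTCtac
hsp-110: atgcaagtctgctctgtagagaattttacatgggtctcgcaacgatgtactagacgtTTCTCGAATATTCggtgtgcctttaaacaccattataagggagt

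A promoter peak was present at 33 of the 65 chaperone genes (50.8%, exact Clopper-Pearson 95% interval 38.1 to 63.4%), where 14.7% of all protein-coding genes had one. These intervals cover counting error only. Of the families, 10 of 22 hsp genes (45.5%, 24.4 to 67.8%), 12 of 29 dnj genes (41.4%, 23.5 to 61.1%), 6 of 8 cct genes (75%, 34.9 to 96.8%) and 5 of 6 pfd genes (83.3%, 35.9 to 99.6%) had a promoter peak. The intervals of the 4 families overlap one another. Compartments were assigned from textbook knowledge of the proteins: 18 of 22 cytosolic members had a promoter peak (81.8%, 59.7 to 94.8%), against 3 of 6 in the endoplasmic reticulum (50%, 11.8 to 88.2%) and 2 of 5 in mitochondria (40%, 5.27 to 85.3%). The other 32 members, all J proteins or small heat shock proteins, were not assigned, and 10 of them had a promoter peak (31.2%, with an upper bound of 50%). They include all 13 small heat shock protein genes, of which 4 had a promoter peak. The compartment shares therefore depend on which members were assigned. These counts give a summit to every gene whose window holds it. When each summit went only to the nearest gene start, 18 of 65 members had a promoter peak (27.7%), where 11.4% of all genes did. The cct genes then had 1 of 8 (12.5%), close to that share, and the pfd genes 3 of 6, the hsp genes 6 of 22 and the dnj genes 8 of 29. Of the cytosolic members 8 of 22 remained (36.4%, 17.2 to 59.3%) and of the unassigned members 7 of 32 (21.9%, 9.28 to 40%). In the endoplasmic reticulum 3 of 6 remained (50%, 11.8 to 88.2%), above the cytosolic share, and in mitochondria 0 of 5 (upper bound 52.2%). All these intervals overlap. The compartment counts under that rule were made after the data were seen.

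**Figure D1:**
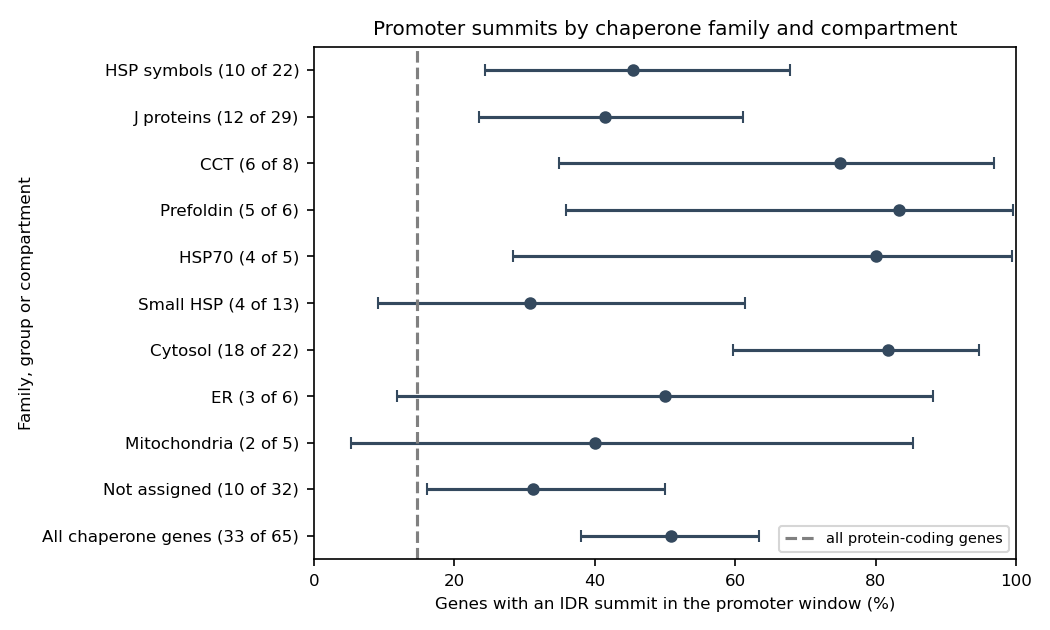
Percentage of chaperone genes with an IDR summit in the promoter window (horizontal axis) for each family, group and compartment (vertical axis). Points are shares, bars are exact 95% intervals for counting error, and the dashed line is the share of all protein-coding genes, 14.7%. Each summit counts for every gene whose window holds it, and under this rule the cytosolic members lie farthest to the right among the compartments, at 81.8%.

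Among the hsp genes, hsp-60, hsp-1, hsp-110 and hsp-3 had the strongest promoter peaks. The gene for the mitochondrial chaperonin, hsp-60, had the strongest chaperone promoter peak, with a signal of 1393 and rank 26 of 6283 in the IDR list, rank 17 in replicate 1 and rank 29 in replicate 2. Its summit lay 610 bp upstream of the hsp-60 start. Among HSP70 genes, 4 of 5 had a promoter peak. The constitutive cytosolic HSP70 gene hsp-1 had a signal of 1067 and rank 58, with ranks 122 and 42 in replicates 1 and 2, and its summit was 394 bp upstream of the start. The gene for the reticulum HSP70 (BiP) hsp-3 followed at rank 773, with ranks 610 and 938 in the replicates and a summit only 41 bp upstream. Mitochondrial hsp-6 had a weaker peak at rank 3631, with ranks 4539 and 3135, and the heat-inducible cytosolic gene hsp-70 was at rank 3798, with ranks 3897 and 4300. The second BiP gene, hsp-4, had no IDR summit in its window. HSP70 promoters thus ranged from the strongest 100 peaks to the weaker part of the list. The gene for the exchange factor hsp-110 had rank 131 and a signal of 825, with ranks 121 and 137 in the replicates.

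Neither HSP90 gene had a summit in its promoter window, but the cytosolic HSP90 gene hsp-90 contained a strong peak. This peak, at rank 36 with a signal of 1211 and ranks 40 and 36 in replicates 1 and 2, had its summit in an intron 864 bp downstream of the outermost hsp-90 start. The same summit was 378 bp upstream of the start of a shorter annotated hsp-90 transcript, and it lay in the promoter window of the neighbouring gene C47E8.4, 297 bp from that start. Counted from any annotated transcript start, hsp-90 therefore had a promoter peak. In the pooled list before the IDR threshold, the window of the outermost start held only a weak summit at rank 22885. No list had a summit in the window of hsp-75, the gene for mitochondrial HSP90. The hsp-90 summit sequence, at chrV:14685732-14685832 on the plus strand, held 1 pair of heat shock units (capitals).
hsp-90: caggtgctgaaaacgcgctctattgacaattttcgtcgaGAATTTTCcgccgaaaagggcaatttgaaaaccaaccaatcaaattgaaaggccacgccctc

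In the chaperonin and prefoldin complexes, 11 of 14 subunit genes had a promoter peak (78.6%, 49.2 to 95.3%), and the strengths differed widely between subunits of the same ring. For CCT, cct-8 was at rank 57 with a signal of 1079 (replicate ranks 53 and 63) and cct-1 at rank 81 with a signal of 972 (64 and 97). The peaks of cct-7, cct-6, cct-5 and cct-2 were at ranks 1628, 2543, 3519 and 5477. Both replicates placed the 6 CCT genes in this same order. The subunit genes cct-3 and cct-4 had no IDR summit in the window. For cct-4 the pooled list held a summit at rank 8083, and for cct-3 only replicate 1 had a summit, at rank 11710. Among prefoldin genes, pfd-1 was at rank 136 with a signal of 814 (replicate ranks 207 and 107), followed by pfd-6 at rank 747, pfd-4 at 1246, pfd-5 at 1439 and pfd-3 at 1882. The window of pfd-2 held no summit in any list. All 5 prefoldin peaks were above the middle of the IDR list, whereas CCT peaks spanned nearly its whole range.

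J proteins stimulate the ATPase of HSP70 and bring it to particular substrates or places. The strongest J protein peak was that of dnj-13, a gene for a cytosolic J protein of the DNAJB1 type, with a signal of 1089 and rank 54 (replicate ranks 37 and 78). Its summit was 209 bp upstream of the start, inside an intron of the overlapping gene dhgd-1. The gene dnj-9 was at rank 209 with a signal of 717 (161 and 237), and dnj-19, for a J protein of the DNAJA type, was at rank 231 with a signal of 687 (234 and 239). These 3 genes had the J protein peaks among the strongest 250. The gene for the reticulum translocon partner SEC63, dnj-29, was at rank 646 with a signal of 449, and the summits in the 2 replicates matched it at ranks 735 and 636. The gene dnj-14, for the synaptic cysteine string protein, was at rank 1057, and dnj-11, for the ribosome-associated J protein zuotin, at rank 1528. The remaining J protein genes with a peak were dnj-28 (rank 1506), dnj-22 (1616), dnj-12 (1959, DNAJA type), dnj-1 (2503), dnj-5 (3810) and dnj-7 (5502, for the reticulum protein P58IPK).

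The members dnj-28 and dnj-12 were the only chaperone genes with a second summit in the window. For dnj-28 it lay 405 bp upstream at rank 2789, beside the stronger summit at 99 bp. For dnj-12 it lay 398 bp upstream at rank 2538, beside the stronger summit at 89 bp. Within 150 bp of these second summits replicate 1 had a peak, at ranks 5133 and 1394, and replicate 2 had none. At dnj-12 the second summit was the stronger in replicate 1, where the first was at rank 3727. Both second summits were nearer to the start of the divergent neighbour, supr-1 or mtx-1, than to the chaperone gene.

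Of the small heat shock protein genes, 4 of 13 had a promoter peak (30.8%, 9.09 to 61.4%), an interval that overlaps those of the other groups, and none of these peaks was among the strongest 1000. The summit of hsp-12.6 was 132 bp upstream at rank 2295 with a signal of 211 (replicate ranks 1966 and 2597), and that of hsp-25 was 994 bp upstream at rank 2788, at the edge of the window. The heat-inducible pair hsp-16.2 and hsp-16.41, transcribed away from each other, shared a summit in the gap between them at rank 3340 with a signal of 153 (replicate ranks 3028 and 3898). It was 52 bp from the start of hsp-16.41 and 169 bp from that of hsp-16.2, and the sequence, at chrV:1805076-1805176 on the strand of hsp-16.41, ends in a pair of heat shock units (capitals).
hsp-16.41: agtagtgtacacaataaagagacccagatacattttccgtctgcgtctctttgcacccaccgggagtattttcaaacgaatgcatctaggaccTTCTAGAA

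The other hsp-16 cluster on chromosome V, with 2 copies each of the symbols hsp-16.1 and hsp-16.48 in the annotation, had no summit in any list. In the promoter windows of these 4 genes, 93.2 to 100% of all 36-base words occurred elsewhere in the genome, against at most 18.9% for any other member. Without these 4 genes, a count made after the data were seen, 4 of 9 small heat shock protein genes had a promoter peak (44.4%). The handling of reads that match several places is not stated by the authors, and the part of these repeats in the missing peaks was not tested. No IDR summit lay in the windows of hsp-12.1, hsp-12.2, hsp-12.3, hsp-17 and hsp-43. For hsp-12.2 the pooled list held a summit at rank 8821, and hsp-12.3 had an IDR summit in its 3′ UTR, 710 bp downstream of the start, at rank 1575. That hsp-12.3 summit also lay 34 bp from the snRNA gene F38E11.11 and in the promoter window of F38E11.9.

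Each replicate list was then searched within 150 bp of the 34 distinct member summits. Replicate 1 had a peak at all 34 and replicate 2 at 32, so that both held 32 of them. Over these 32 summits Spearman's rho between the replicate ranks was 0.924, as a description, because both libraries had entered the IDR selection. As a percentile of signal within its list, a summit differed between replicates by a median of 0.95 points. The largest difference, 24.7 points, was at dnj-7, with a percentile of 59.8 in replicate 1 (rank 10637) and 84.5 in replicate 2 (rank 4637). With peaks of 1 replicate alone, as many as there are IDR peaks, dnj-7 was lost in replicate 1 and cct-2 in replicate 2. Members at the top of the list therefore rest on peaks that are strong in both libraries, and the order near the bottom differs between them.

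**Figure D2:**
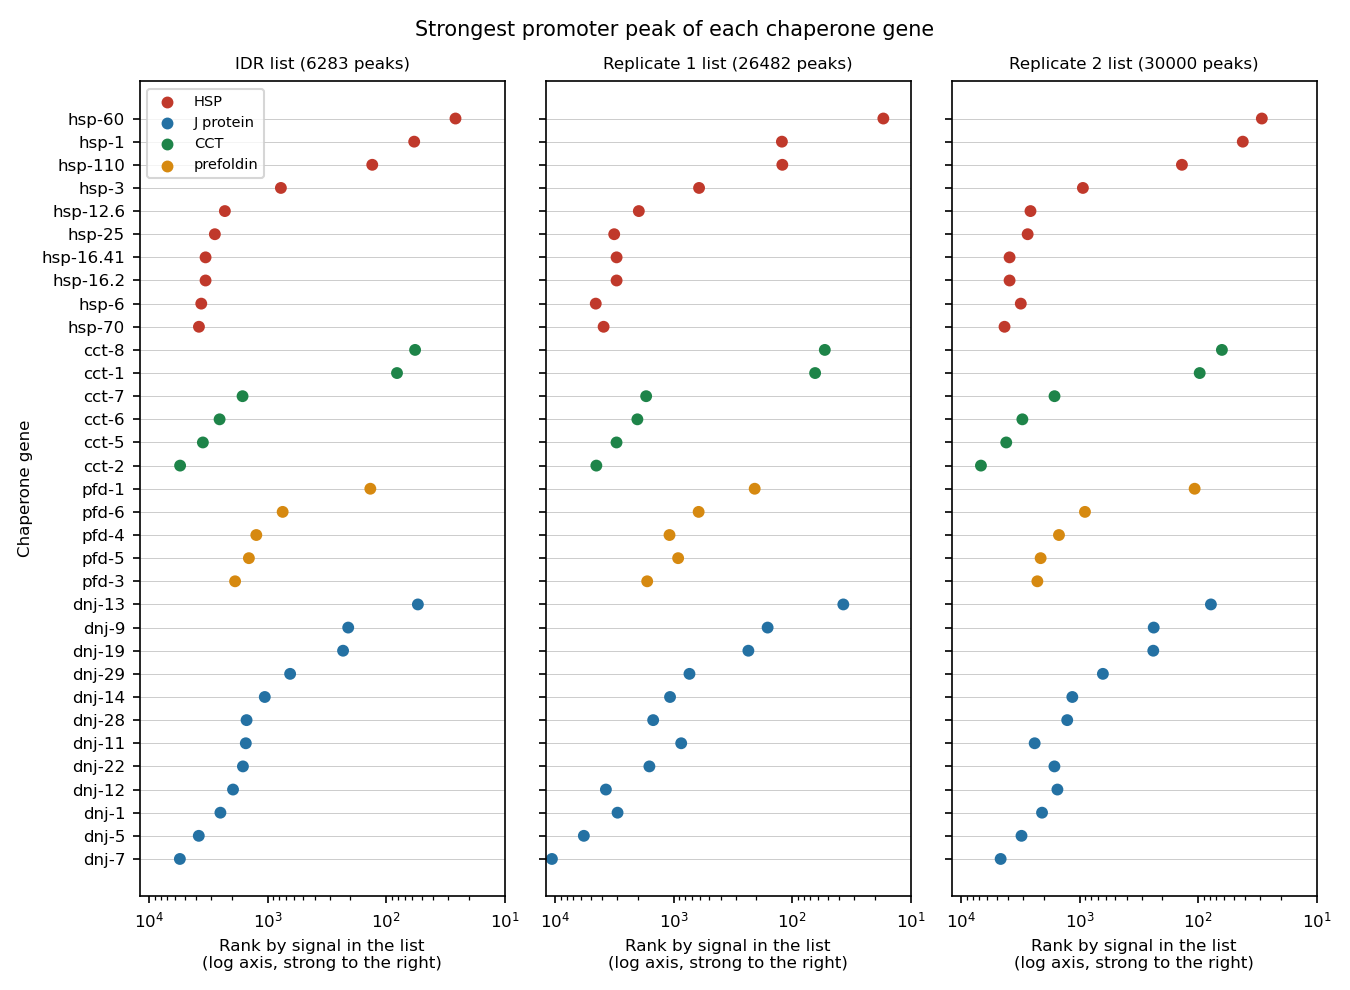
Rank of the strongest promoter peak of each of the 33 chaperone genes (vertical axis, grouped by family) in the IDR list and at the same summit in each replicate list (horizontal log axes, strong to the right). The genes hsp-60, cct-8, cct-1 and dnj-13 are among the strongest 100 in all 3 panels, and dnj-7 has the largest difference in percentile, 24.7 points, at rank 4637 in replicate 2 and 10637 in replicate 1.

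Most chaperone promoter peaks were shared with a neighbouring gene. Of the 34 summits, 25 (73.5%) also lay in the promoter window of another protein-coding gene, against 27.4% of all 2429 promoter summits. Counted by gene, the strongest summit was shared for 24 of 33 members and was nearer to the start of the other gene for 15 of them. With each summit given only to the nearest gene start, 18 members had a promoter peak in place of 33. Over all protein-coding genes the same rule left 2274 genes in place of 2944. All 6 CCT summits were shared, 5 of them nearer to the other gene: the cct-1 summit was 232 bp from cct-1 and 188 bp from mig-5, a dishevelled homologue. The cct-8 summit was 436 bp from cct-8 and 185 bp from Y55F3AR.2. The hsp-60 summit was 203 bp from the start of Y22D7AL.10, and the hsp-110 summit lay 244 bp from hsp-110 and 200 bp from the proteasome gene rpn-3. At dnj-19 the summit was 391 bp from the J protein gene and 5 bp from the start of the nuclear receptor gene nhr-47. Other pairs were pfd-1 with F01G4.6 (334 and 275 bp), dnj-14 with the neuroligin-like gene glit-1 (337 and 194 bp) and cct-6 with the aldehyde dehydrogenase gene alh-9 (292 and 39 bp). Position alone cannot tell which gene of such a pair a peak belongs to. The summits of hsp-1, hsp-3, hsp-70, hsp-12.6, hsp-25, dnj-9, dnj-5, dnj-7 and pfd-3 lay in no other protein-coding promoter window.

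**Figure D3:**
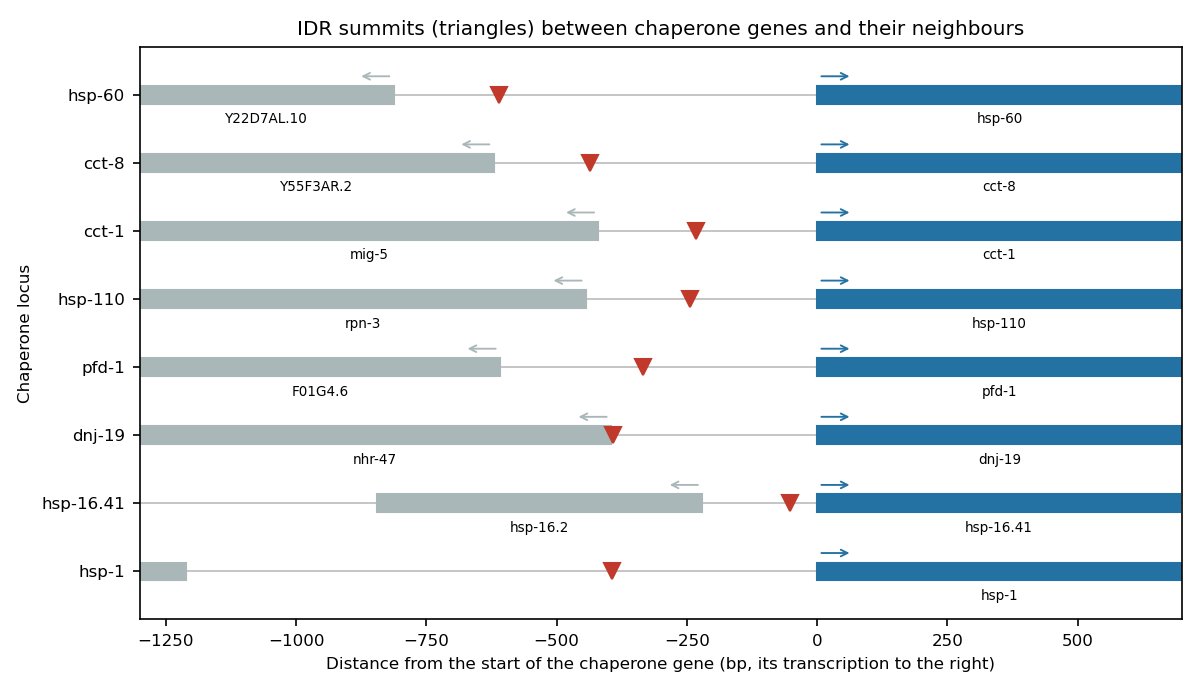
Position of the promoter summits (red triangles) at 8 chaperone loci, in bp from the start of the chaperone gene with its transcription to the right (blue boxes, the chaperone gene; grey boxes, other protein-coding genes; arrows, direction of transcription where the start is in view). At 7 loci the summit lies between genes transcribed away from each other, or at the start of the neighbour, and hsp-1 has a long gap to a gene on the same strand.

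Chaperone genes more often had a divergent neighbour close by: 28 of 65 (43.1%) had a gene on the opposite strand within 1000 bp upstream, against 17.2% of all genes, and their median upstream gap was 527 bp against 937 bp. A promoter peak was present at 19 of these 28 members (67.9%), where 30.7% of all genes with such a neighbour had one. Of the other 37 members, 14 had a promoter peak (37.8%), where 11.4% of all other genes had one. The members' share was above that of all genes in both settings.

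The summits lay at a median distance close to that for all genes, but more often within 500 bp upstream. Their median distance to the member start was 253 bp (quartiles 147 and 396 bp) over 35 pairs of gene and summit, against 254 bp over 3138 such pairs for all genes. All 35 were upstream of the start, as were 94.1% of the pairs for all genes. Within 500 bp upstream lay 32 of the 35 (91.4%), against 69.4% for all genes. The closest was that of pfd-3 at 25 bp and the farthest that of hsp-25 at 994 bp. In gene models, 32 of 34 summits were outside protein-coding genes and 2, those of dnj-13 and hsp-70, in introns of overlapping genes. The median signal of the member summits was 275 against 173 for all promoter summits, and 12 of 34 (35.3%) were among the strongest 1000 IDR peaks against 19.4%. No member summit (0 of 34) lay within 100 bp of a tRNA, snoRNA, snRNA or rRNA gene, where 3.29% of all promoter summits did. For 0 of 34 a rough limit of 8.82% is used, the share that 3 summits would make, which is not an exact interval. By chromosome, promoter peaks were present at 6 of 11 members on I (19.6% of all genes there), 5 of 12 on II (422 of 3449 genes), 5 of 12 on III (20.2%), 7 of 11 on IV (13.9%), 6 of 14 on V (10.7%) and 4 of 5 on X (15.9%).

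**Figure D4:**
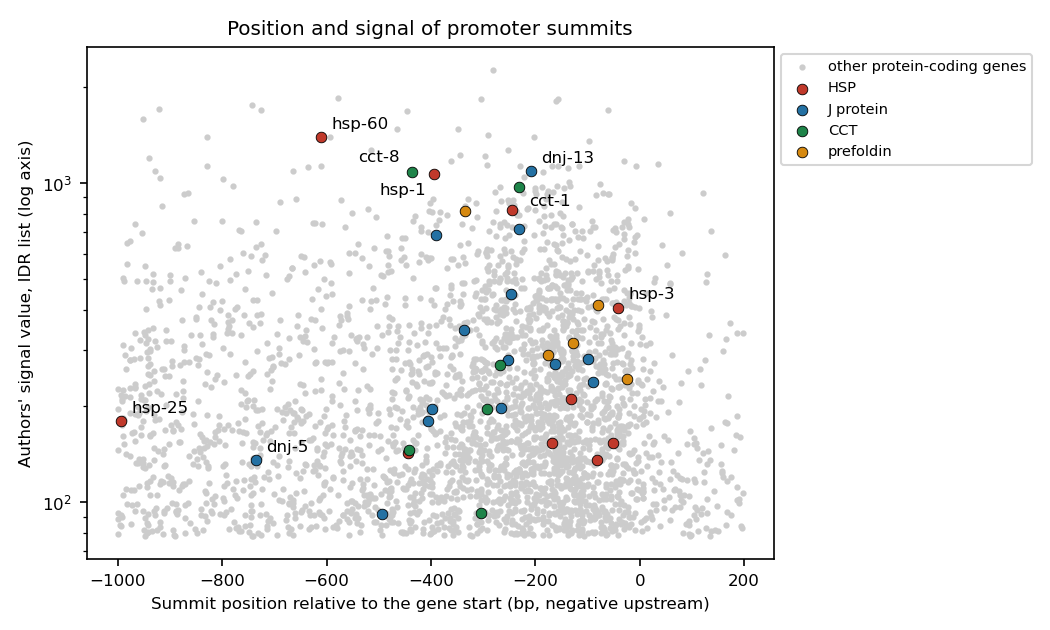
Authors' signal value of each promoter summit in the IDR list (vertical log axis) against its position relative to the gene start (horizontal axis, negative upstream), for chaperone genes (coloured by family) and all other protein-coding genes (grey). Of the chaperone pairs 32 of 35 lie within 500 bp upstream, against 69.4% for all genes; hsp-60 is the highest, at a signal of 1393.

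Heat shock units occurred at more of the chaperone summits than elsewhere. The searched forms were GAANNTTC and TTCNNGAA, each its own reverse complement, within 50 bp of a summit. At least 1 of them was present at 10 of 34 member summits (29.4%), against 7.2% of all promoter summits and 7.58% of all IDR summits. Among the strongest 1000 peaks the shares were 4 of 12 (33.3%) for member summits and 7.64% for all promoter summits. GAANNTTC occurred at dnj-13, hsp-1, cct-1, hsp-110, pfd-5 and hsp-70, and TTCNNGAA at hsp-110, hsp-70, the second dnj-28 summit, the shared hsp-16.2 and hsp-16.41 summit, cct-5 and cct-2. The heat shock element of 3 units, which contains both forms overlapping, was found at hsp-110 and hsp-70 (2 of 34, 5.88%, against 0.7%). The 4 strongest summits held such a pair at dnj-13 and hsp-1 and none at hsp-60 and cct-8.

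In the whole promoter window, a pair of heat shock units was present at 58 of 65 members (89.2%), close to the 79.9% of all protein-coding windows. It was present in 28 of 33 windows with a peak (84.8%) and in 30 of 32 without (93.8%). The element of 3 units was in 16 of 65 member windows (24.6%) against 7.68% of all windows. That element was in 10 of 33 windows with a peak (30.3%) and in 6 of 32 without (18.8%). The windows without a peak that held it included all 4 of the repeated hsp-16.1 and hsp-16.48 cluster. A match describes these letters only and is not evidence of binding by a factor.

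Of the other words, none had a higher share at member summits by a margin of that size. The homeodomain core TAATTA was at 0 of 34 member summits (rough limit 8.82%, as above) and at 3.91% of all promoter summits. The palindromes of TAAT cores bound by paired-class homeodomains, with spacers of 2 or 3 bases, were also at 0 of 34, and at 0.329% of all promoter summits for each spacer. In whole windows TAATTA occurred at 33 of 65 members (50.8%) and at 47.3% of all genes. At the summits the E-box CACGTG was at 0 of 34 against 3.46%, TATAAA at 5.88% against 6.67%, GAGAGA at 20.6% against 21.7% and TGATAA at 5.88% against 4.57%. In whole windows CACGTG occurred at 9 of 65 members (13.8%) and at 18.4% of all genes. Of the member windows, 8 of 33 with a peak (24.2%) and 1 of 32 without (3.12%) held it. All words were searched on both strands. The median GC content of the member summits was 45.5% (23.8 to 65.3%, highest at hsp-3) against 44.6% for all promoter summits.

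**Figure D5:**
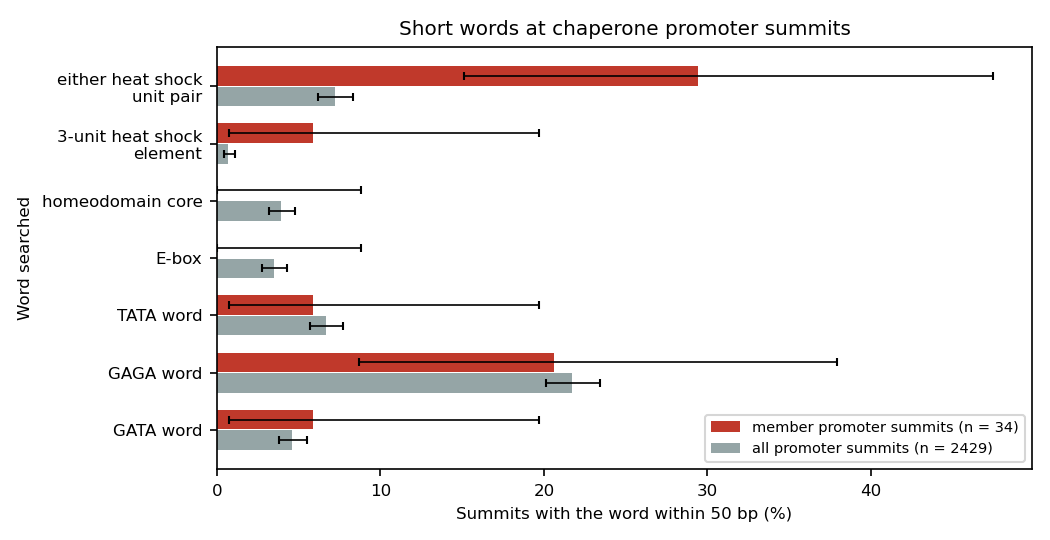
Percentage of summits with each word within 50 bp (horizontal axis) at the 34 member promoter summits (red) and at all 2429 promoter summits (grey). Bars are exact 95% intervals for counting error. For 0 of 34 the bar runs to a rough limit of 8.82%, which 3 summits would make and which is not an exact interval. The pair of heat shock units stands apart at 29.4% against 7.2%, and the bars of member and all summits overlap for each of the other words.

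The 32 members without a promoter peak comprised 17 J protein genes, 9 small heat shock protein genes, hsp-4, hsp-75, hsp-90, cct-3, cct-4 and pfd-2. The J protein genes were dnj-2, dnj-3, dnj-4, dnj-8, dnj-10, dnj-15, dnj-16, dnj-17, dnj-18, dnj-20, dnj-21, dnj-23, dnj-24, dnj-25, dnj-26, dnj-27 and dnj-30. For 10 of the 32 the pooled list before the IDR threshold held a summit in the window, and 18 had none in any list. Of all protein-coding genes 33.3% had a summit of the pooled list in the window, against 14.7% with an IDR summit. The pooled list includes background, and the share among all genes without a promoter peak was not counted. The distance from the start to the nearest IDR summit ran from 710 to 45495 bp with a median of 6557.5 bp, and it was under 3000 bp for 9 of them. The gene dnj-10, for the mitochondrial J protein of the DNAJA3 type, stood apart between replicates: replicate 1 had a summit at -110 bp from the start, at rank 3281, and neither replicate 2 nor the pooled list had one. For dnj-2 the summit of pfd-4 lay 1099 bp upstream, just outside the window. Some members had IDR summits in the gene body beyond the window: dnj-24 had one in an intron 1203 bp downstream of the start at rank 808, and dnj-20, for a reticulum J protein, had intronic summits at ranks 3786 and 4583. The gene cct-5 had 3 intronic summits, at ranks 1201, 1825 and 2327, all stronger than its promoter peak, and that at rank 1825 also lay in the promoter windows of atf-7 and C07G2.5.

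Related genes outside the 4 symbol families were counted in the same way, against the same 14.7% of all protein-coding genes. Of the co-chaperones and other folding factors, 8 of 15 had a promoter peak (53.3%), led by bag-1 (rank 200), an HSP70 exchange factor, ahsa-1 (372), an activator of HSP90, and sti-1 (508), which links HSP70 to HSP90. The reticulum HSP90 gene enpl-1 was at rank 922. Of 11 genes for mitochondrial import and quality control, 6 had one (54.5%), with the import receptor tomm-20 at rank 329 and the translocase gene timm-23 at 1215. Of 9 reticulum folding genes, 3 had one (33.3%): the calreticulin gene crt-1 at rank 348 and the disulfide isomerase genes pdi-3 and pdi-2 at ranks 1143 and 4906. Of 15 regulators of stress responses, 8 had a promoter peak (53.3%). Among them were the hypoxia factor gene hif-1 at rank 1274 and the unfolded protein response genes atf-6 at 1952 and xbp-1 at 2852, and hsf-1 had none. The small heat shock protein gene sip-1 was at rank 1023. Of 14 genes for tubulins and actins, which CCT and prefoldin fold, 6 had one (42.9%), with tba-2 at rank 526 and act-4 at 817. The summits of ahsa-1, enpl-1, timm-23, pdi-3 and sip-1 also lay in the promoter window of another gene. Those of the other related genes named here with a peak did not. These lists were not counted with each summit given only to the nearest gene start.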

How the data were processed

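Per the labels, ChIP-seq libraries of 2 biological replicates in 1 group were made with an anti-GFP antibody. The authors deposited peak lists in narrowPeak layout, with a signal value, a q-value as −log10 and a summit offset per peak. Which aligner, peak caller and IDR threshold the authors used is not given here. The deposited signal only ranked peaks within a list. The deposited −log10 q-value was not used for ranking, because all 34 member summits were at its ceiling, as were 5914 of all 6283 IDR summits. The ce11 lists were used and the ce10 lists were not. Gene starts came from Ensembl release 115 for WBcel235, and sequence from the RefSeq copy of that assembly. The outermost start of a gene was used; trans-splicing can place annotated starts downstream of the true one.

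Members, related lists and words were chosen with earlier results of these data known, so no test was run, and shares stand beside those of all genes. Every member with a promoter peak is named. With 1 group and no read counts, no fold change or p-value was possible. The code that places summits in windows was tested on simulated data, which does not bear on which gene a summit belongs to. RefSeq symbols, compartments by nearest start and small heat shock genes without repeated windows were added as alternatives after the data were seen. Scripts used Python 3.11.15, pandas 2.3.3 and scipy 1.17.1. The compartments and protein groups are hand-assigned, and 3 listed co-chaperone symbols, 1 import symbol and 1 small heat shock symbol had no match.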

Additional observations from a re-analysis of the deposited data

How the results depend on the processing

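The count of 33 chaperone genes with a promoter peak stayed between 30 and 35 with a window of 500 bp upstream or 2000 bp upstream, with the start of any transcript, with overlap of the peak interval (34), and with RefSeq symbols (33 of 67 genes). It was 25 (38.5%, against 8.6% of all genes) with the stronger 50% of the IDR peaks, and 43 (66.2%, against 33.3%) with the pooled list before the IDR threshold. It fell to 18 of 65 (27.7%, against 11.4% of all genes under the same rule) when each summit was given only to the nearest gene start. Under that rule the hsp genes fell from 10 to 6, the cct genes from 6 to 1 of 8 (12.5%, close to the 11.4% of all genes) and the pfd genes from 5 to 3, and the 15 members lost were those whose summit lay nearer to another gene. With the stronger 50% of the peaks the hsp genes fell from 10 to 6. With replicate 1 alone the count was 33 (50.8%, against 15% of all genes), and with replicate 2 alone 32 (49.2%, against 14.3%). Percentiles of single genes were not compared across the pooled and replicate lists, which are longer than the IDR list. No paired analysis was possible because there is 1 group and no test. Depth is unknown, so a gene without a summit is not shown to lack binding.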
